A study of Arabidopsis thaliana with 3 samples.

Results

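WRKY transcription factors are a large plant family of regulators whose WRKY domain binds W boxes, short DNA elements with a TTGAC core. They are known above all for controlling immune responses to bacteria, fungi and viruses, and also act in leaf senescence, heat and drought responses, phosphate uptake and seed and stem development. Many WRKY genes carry W boxes themselves, so the family forms a network of cross-regulation. SOB3 is an AT-hook protein, a class that binds AT-rich DNA through the minor groove, and it represses the growth of seedlings and petioles.

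The members described here are the 67 protein-coding genes whose symbol in the NCBI gene table of assembly TAIR10.1 is WRKY followed by a number, of 27444 protein-coding genes on chromosomes 1 to 5. Chromatin came from whole plants of Arabidopsis thaliana, ecotype Columbia (Col-0), aged 14 days, of the genotype ProSOB3::SOB3-GFP sob3-4, in which the SOB3 promoter drives the fusion protein in the sob3-4 background. Growth was at 22 °C on sucrose-free medium under long days (16 h of light, 8 h of darkness), with harvest 4 h into the light period (ZT4). An antibody against GFP pulled down the fusion for 2 ChIP libraries, called replicate 1 and replicate 2, and a further library, the input, was made with no antibody; each ChIP library had its own list of MACS2 peaks, and no file of the input was used here. Whole plants mix all cell types. Among the samples is no ChIP of plants that lack the transgene, so whether the antibody recovers signal at WRKY genes without SOB3-GFP was not tested.

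The replicate 1 list held 9980 peaks and the replicate 2 list 4788. Peak strength is given as fold enrichment, the authors' linear ratio of ChIP to control signal at the summit, with a median over all peaks of 2.58 and 2.47. The number of ChIP reads covering each summit, extended by the caller, was recovered from the fold and p columns (median 74 and 62 reads). If both lists were scaled to the same control, which is not stated, the depth of replicate 1 was 1.14 times that of replicate 2. Genes with a peak summit between 1000 bp before one end and 1000 bp past the other are called bound, a word that says no more than that a peak is there. Nothing in the labels ties the replicates to separate plantings, so the spread between them may be technical.

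SOB3-GFP peaks were found at 31 of the 67 WRKY genes (46.3%) in at least 1 list, and at 8 (11.9%) in both. Of all 27444 genes, 7888 (28.7%) were in the replicate 1 list, a further 550 in the replicate 2 list only, and 3213 (11.7%) in both. The 8 WRKY genes in both lists were WRKY7, WRKY33, WRKY43, WRKY47, WRKY49, WRKY53, WRKY54 and WRKY74. A further 20 (29.9%) had a summit in the replicate 1 list only, as did 4675 of all 27444 genes. Another 3 (4.48%), WRKY6, WRKY10 and WRKY61, had one in the replicate 2 list only, as did 550 of all genes. The remaining 36 had a summit in neither. The replicate 1 list thus held 28 members (41.8%, exact 95% binomial interval 29.8% to 54.5%), against 28.7% of all protein-coding genes. The replicate 2 list held 11 (16.4%, 8.49% to 27.5%), against 13.7% of all genes. Both lists held 8 (11.9%, 5.30% to 22.2%), against 11.7% of all genes. The share in both lists was therefore close to that of genes at large, and the widest gap was in the replicate 1 list. By count, calls at members recurred less often than those at genes at large, but these shares rest on few genes and the difference was not tested. Of the 28 replicate 1 members, 8 (28.6%) were also in the replicate 2 list, against 40.7% of all genes in the replicate 1 list. Of the 11 replicate 2 members, 8 (72.7%) were also in the replicate 1 list, against 85.4%. At −log10 q of at least 5 the replicate 1 gap remained, with 22 members (32.8%), against 21.5% of all genes. Among the strongest replicate 1 peaks there was no gap: at −log10 q of at least 10, 7 members (10.4%) had a replicate 1 summit, against 10.4% of all genes. For the other large regulator families by symbol, the replicate 1 list held 29 of 79 NAC genes (36.7%) and 39 of 115 MYB genes (33.9%), and both lists held 11 (13.9%) and 14 (12.2%). WRKY spans had a median length of 2006 bp, against 2078 bp over all genes, so the windows were of similar width. No test between sets of genes was run. The binomial intervals treat the 67 genes as independent draws, cover no variation between libraries and do not serve as such a test.

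**Figure D1:**
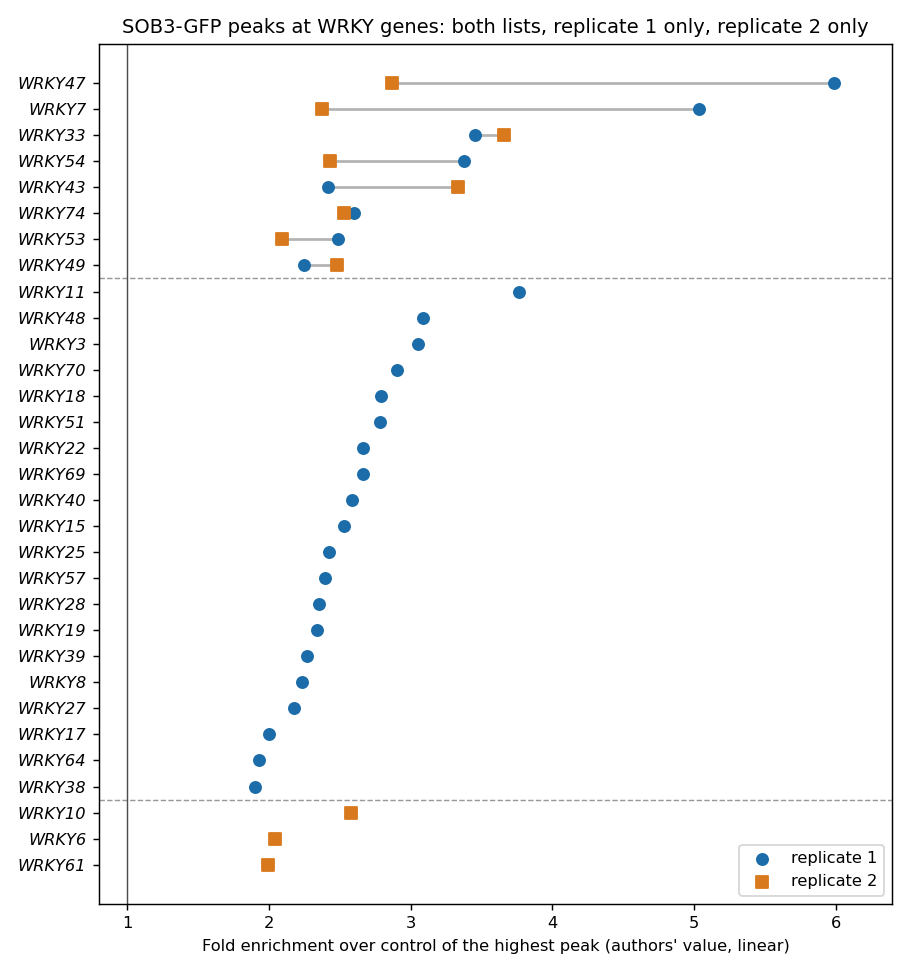
Fold enrichment over control (linear, authors' values) of the highest peak at each of the 31 WRKY genes with a summit in at least 1 list; circles are replicate 1, squares replicate 2, and grey lines join the values of a gene in both lists. The upper block holds the 8 genes in both lists, the middle block the 20 in replicate 1 only, led by WRKY11 at 3.77, and the lower block the 3 in replicate 2 only.

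Of the 8 genes bound in both lists, 4 are regulators of defence, namely WRKY33, WRKY7, WRKY53 and WRKY54. The defence list used here, chosen with earlier results of these data known, holds 26 of the 67 members. WRKY33 (AT2G38470) is required for resistance to necrotrophic fungi and for synthesis of the antimicrobial compound camalexin. It had the most even signal of the strong members, with a peak at chromosome 2, 16108130 to 16108451 (TAIR10) in replicate 1 and 16108158 to 16108426 in replicate 2. Enrichment over control was 3.46-fold in replicate 1 and 3.66-fold in replicate 2, with 85 and 79 reads over summits 6 bp apart. Both summits lay just inside one end of the gene, 52 and 46 bp from its edge, and no other protein-coding gene lay within 1 kb. WRKY33 was the only member left in both lists at −log10 q of at least 10 (13.9 and 14.6), a level that 1.86% of all genes reached in both.

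WRKY7 (AT4G24240), a calmodulin-binding repressor of defence against bacteria, carried 2 peaks inside its span in replicate 1. The stronger, 936 bp wide at chromosome 4, 12572842 to 12573777, reached a fold of 5.03, while the replicate 2 peak within it, at 12573364 to 12573654, had a fold of 2.38. The second replicate 1 peak, near the other end of the gene, had a fold of 2.996 and no replicate 2 peak. Scaled to the control, the summit of the stronger peak stood at 101 reads in replicate 1 (95% Poisson interval 84.8 to 119) and at 43.5 in replicate 2 (32.6 to 56.9), over control values of 19.2 and 17.7. These intervals did not overlap, so the replicates differed at WRKY7 by more than counting error. All such intervals cover counting error only, at positions that are local maxima.

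WRKY53 (AT4G23810), which promotes leaf senescence, and WRKY54 (AT2G40750), which with WRKY70 restrains senescence and modulates salicylic acid signalling, both belong to group III of the family. At WRKY54 the fold was 3.37 in replicate 1 and 2.43 in replicate 2, with 97 and 61 reads over summits 8 bp apart and 267 and 259 bp outside the span. The neighbouring WRKY55 lay 3296 bp from the replicate 1 summit and had no summit of its own. At WRKY53 the fold was 2.49 and 2.09, with 78 and 60 reads over summits 109 bp apart, 429 and 320 bp outside the span. A second replicate 2 peak of WRKY53 (2.04) lay 949 bp out and had no counterpart in replicate 1. The scaled pileup intervals of the replicates overlapped at both genes.

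The strongest replicate 1 peak of the family lay beside WRKY47 (AT4G01720), a group IIb gene. It spanned 1286 bp at chromosome 4, 743545 to 744830, with a fold of 5.99 and a −log10 q of 48.5, within the top 0.541% of the replicate 1 list. In replicate 2 the same stretch held 2 separate, weaker peaks at 744002 to 744301 and 744394 to 744710, with folds of 2.87 and 2.02. The summit stood at 119 scaled reads in replicate 1 (101 to 138) and at 52.5 (40.5 to 67.1) and 39.4 (29.0 to 52.2) at the replicate 2 summits, so the replicates again differed by more than counting error. Control values were alike, at 19.0 in replicate 1 and 17.7 and 19.0 in replicate 2. The replicate 1 summit lay 626 bp outside the gene, and the next protein-coding gene was 5129 bp away.

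WRKY43 and WRKY49 belong to group IIc and WRKY74 to group IId. WRKY43 (AT2G46130) had replicate 1 and replicate 2 folds of 2.41 and 3.33, with 69 and 80 reads. Its summits lay 67 and 35 bp inside the same end of a short gene of 714 bp. WRKY43 was, with WRKY33, 1 of the 2 members with a replicate 2 peak at −log10 q of at least 10 (13.0 for WRKY43; 2.39% of all genes had one), and its replicate 1 value was the lower one. WRKY49 (AT5G43290) had the lowest replicate 1 fold of the 8, 2.25 against 2.48 in replicate 2, and summits 10 bp apart, 469 and 459 bp outside the span. That region lay at a like distance, 482 bp in replicate 1, from LURE1.1, so which of these neighbours it belongs to cannot be told from position. WRKY74 (AT5G28650) was bound at 2 places in both lists: nearer to the gene the folds were 2.39 and 2.21, and farther out, at 900 and 857 bp, they were 2.60 and 2.53. The scaled pileup intervals of the replicates overlapped at WRKY33, WRKY43, WRKY49, WRKY53, WRKY54 and WRKY74, and did not at WRKY7 and WRKY47.

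**Figure D2:**
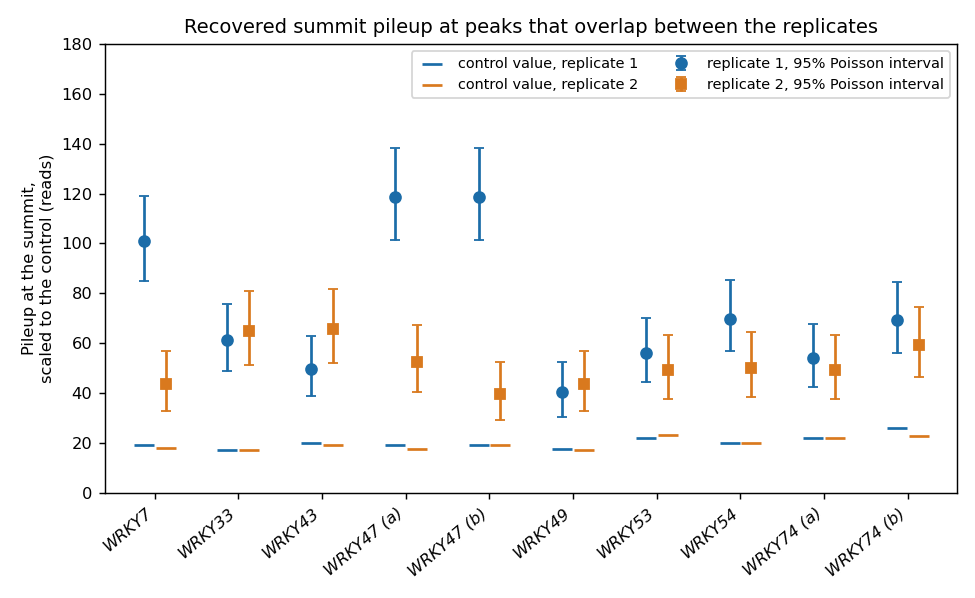
ChIP reads over the summit, scaled to the control (y axis, reads), at the 10 pairs of peaks that overlap between replicates at the 8 WRKY genes in both lists; points carry 95% Poisson intervals and dashes are the control values. WRKY47 (a) and (b) share 1 replicate 1 peak and pair it with each of 2 replicate 2 peaks; the intervals are apart at WRKY7 and at both WRKY47 pairs and overlap at the other 7 pairs.

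All 8 members bound in both lists had peaks that overlapped by at least 1 bp, which held for 11.3% of all genes and for 96.9% of those in both lists, and their closest summits lay a median of 33.5 bp apart. The median of the lower fold was 2.42, against 2.45 over all 3213 genes in both lists. Fold was higher in replicate 1 for 5 of the 8 (62.5%), against 72.8% of all genes in both lists. Across the 8 members the top folds of both replicates were nearly unrelated, with a Spearman coefficient of 0.095 and a Pearson coefficient of log2 folds of 0.10, against 0.36 and 0.41 across all genes in both lists. These values describe the genes, which are not replicates. The members strongest in replicate 1 (WRKY47 and WRKY7) were not those strongest in replicate 2 (WRKY33 and WRKY43).

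**Figure D3:**
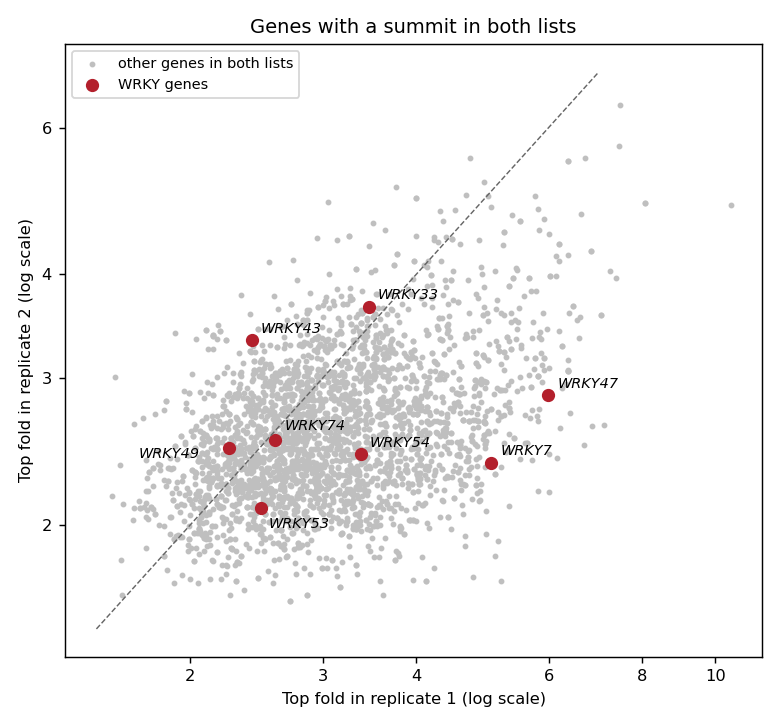
Top fold in replicate 1 (x axis) against replicate 2 (y axis), both on log scales, for the 3213 genes with a summit in both lists; WRKY genes are red and labelled, other genes grey, and the dashed line marks equal folds. WRKY47 and WRKY7 lie far to the right at replicate 2 folds of 2.87 and 2.38, while WRKY43 and WRKY33 lie above the line.

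The 20 members found in replicate 1 only had 26 peaks, and none of these overlapped any replicate 2 peak. The selection nearly fixes this, since a replicate 2 summit in the window would have put the gene in both lists. The top folds of the 20 members ran from 1.90 to 3.77 with a median of 2.48, against a median of 2.99 at the 8 members in both lists. Over all genes the corresponding medians were 2.48 and 3.01. WRKY11 (AT4G31550), a repressor of basal resistance that acts with WRKY17, led this set: its 3 replicate 1 peaks had folds of 2.28, 1.85 and 3.77, the last with 101 reads at 678 bp outside the span. The nearest replicate 2 summit to the WRKY11 span was 125441 bp away. WRKY48 (AT5G49520), which represses basal defence, had a fold of 3.08 with the summit 20 bp inside an edge. WRKY3 (AT2G03340), needed with WRKY4 for resistance to necrotrophs, had 3.05 at 801 bp outside. WRKY70 (AT3G56400), a node between salicylic acid and jasmonate signalling, had 2.90 at 352 bp outside, and WRKY18 (AT4G31800), which with WRKY40 and WRKY60 restrains immunity, had 2.79 inside its span. Of the 7 members with a replicate 1 peak at −log10 q of at least 10, 4 also had a replicate 2 summit (57.1%), against 63.0% of all such genes.

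The remaining replicate 1 members were spread over many roles at lower folds. WRKY40 (2.58), the partner of WRKY18, had its summit 1 bp inside the edge of its span. WRKY22 (2.66) acts downstream of the flagellin receptor, WRKY51 (2.78) in repression of jasmonate responses, and WRKY28 (2.35) in activating salicylic acid synthesis. WRKY25 (2.43) and WRKY39 (2.27) act in heat tolerance, WRKY15 (2.53) in osmotic stress responses and WRKY57 (2.39) in drought tolerance. WRKY19 (2.34) encodes a resistance protein fused to a WRKY domain, WRKY8 (2.23) acts against viruses and WRKY27 (2.17) in the response to bacterial wilt. WRKY69 (2.66), WRKY17 (1.997), WRKY64 (1.93) and WRKY38 (1.90) complete the set. Among the 3 in replicate 2 only, WRKY10 (AT1G55600), a regulator of seed size, had a fold of 2.58, WRKY6 (AT1G62300), a regulator of phosphate export and senescence, 2.04, and WRKY61 (AT1G18860), which acts with WRKY72 in basal immunity, 1.996.

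The place of the summits relative to the WRKY genes is described next, beside the same over all genes and with no test. In replicate 1, 14 of 36 gene and peak pairs (38.9%) had the summit inside the WRKY span, against 23.8% of 9921 pairs over all genes, and 12 of these 14 lay within 250 bp of an edge (85.7%, against 58.7% over all genes). Counting only summits inside the span, 12 members (17.9%) were bound in replicate 1, against 7.5% of all genes. On the same count 3 members (4.48%), WRKY7, WRKY33 and WRKY43, were bound in replicate 2, against 2.8% of all genes, and the same 3 in both lists, against 2.12%. In replicate 2, 3 of 15 pairs were inside the span, while over all genes 19.9% were, and 2 of these 3 lay within 250 bp of an edge (66.7%, against 49.2% over all genes). Counting inside and outside, 17 of 36 replicate 1 pairs (47.2%, against 44.9% over all genes) and 3 of 15 replicate 2 pairs (against 36.4%) were within 250 bp of an edge. Summits outside lay a median of 499 bp (replicate 1) and 445.5 bp (replicate 2) from the span, against 336 and 385.5 bp over all genes. The gene table gives no strand, so whether an edge is the start or the end of a gene was not used here. Of 34 pairs outside the span, 7 had another protein-coding gene nearer to the summit, at 6 members; at WRKY8 the gene RWA1 lay 107 bp from the summit, at WRKY27 AT5G52840 lay 131 bp away, and at WRKY15 and WRKY19 a summit lay inside the neighbours AT2G23321 and AT4G12010. At WRKY39 (CLPS3) and at the weaker replicate 2 peak of WRKY43 (AT2G46140) the neighbour was nearer as well. Among the 8 members in both lists, none rests only on such a summit.

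**Figure D4:**
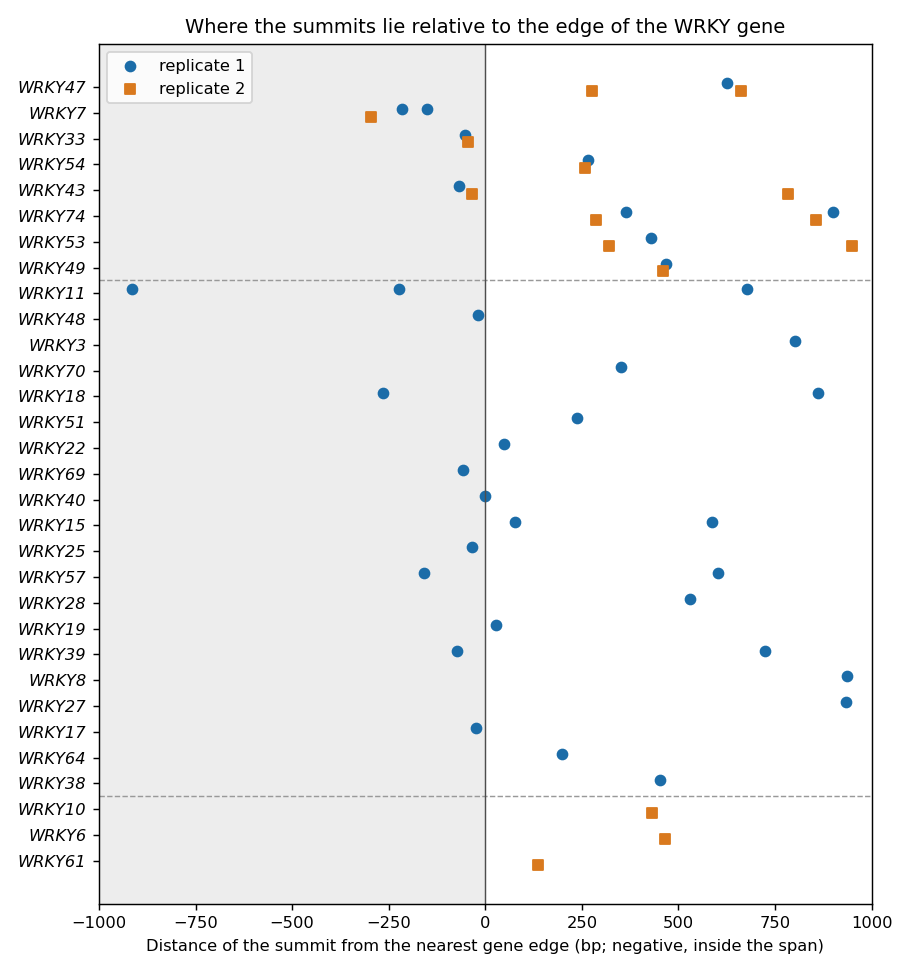
Distance of each summit from the nearest edge of the WRKY gene (x axis, bp; the shaded negative side is inside the span) for the 31 genes with a summit, in the same order as in the plot of fold by gene; circles are replicate 1, squares replicate 2. In replicate 1, 12 of the 14 summits inside a span lie within 250 bp of an edge.

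The 1000 bp limit decided several calls. Just inside it were the replicate 1 summits of WRKY27 (934 bp) and WRKY8 (935 bp) and the second replicate 2 summit of WRKY53 (949 bp). Just outside it was a replicate 1 summit of WRKY6 at 1007 bp with a fold of 2.87, above the 2.04 of its replicate 2 peak within the window; these peaks do not overlap. The window of WRKY22 held only a replicate 1 peak, with a fold of 2.66. Beyond the limit, on both sides, lay regions found in both lists, with higher replicate 1 folds. One, at chromosome 4, 525022 to 525597, had summits 1138 and 1097 bp out with folds of 5.30 and 2.18 and no other protein-coding gene within 2204 bp; the other, with folds of 3.27 and 3.85, lay inside the neighbour AT4G01240. At WRKY61 a region at chromosome 1, 6512259 to 6512800, had summits 1170 and 1259 bp out with folds of 5.09 and 3.16, on the far side from the weak replicate 2 peak that counted, and no other protein-coding gene within 2717 bp. WRKY65 had a shared region 1659 and 1728 bp out (1.79 and 2.20). In all, 14 members had a summit more than 1000 and up to 2000 bp outside, and with flanks of 2000 bp 12 members (17.9%) were in both lists, against 16.7% of all genes.

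WRKY proteins are sorted by the number of WRKY domains and the type of zinc finger into groups I, II (a to e) and III. Group IId, whose members bind calmodulin, had the highest share in the replicate 1 list: 6 of 7 genes (85.7%, against 28.7% of all genes), with a median top fold of 2.56 and only WRKY21 without a summit. In both lists it had 2, WRKY7 and WRKY74 (28.6%, against 11.7%). Group IIa had 2 of 3 in replicate 1 and 0 in replicate 2, and group IIe 3 of 7 and 0. Group I had 3 of 12 in replicate 1 and 2 in replicate 2, with only WRKY33 in both. Group IIb had 1 of 8 in replicate 1 (12.5%) and 3 in replicate 2 (37.5%, against 13.7% of all genes), with WRKY47 in both. Its genes in replicate 2 only, WRKY6 and WRKY61, had replicate 1 summits just past the limit. These lay 1007 and 1170 bp outside the spans, with folds of 2.87 and 5.09. Group IIc had 7 of 17 and 2, and group III 5 of 12 and 2, with 2 of each in both lists. WRKY19 was in no group of the list. The groups are small, and the differences between them were not tested.

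The role lists were chosen with earlier results of these data known, and their shares depend on that choice. WRKY19, described above as a resistance protein, was on none of them. By role, the defence list had 18 of 26 genes in the replicate 1 list (69.2%, against 28.7% of all genes). The median top fold of these was 2.72, against 2.66 over all genes called in replicate 1. In the replicate 2 list the defence list had 5 (19.2%, against 13.7%) and in both 4 (15.4%, against 11.7%). Its 7 genes without a summit were WRKY4, WRKY29, WRKY46, WRKY50, WRKY60, WRKY62 and WRKY72. The abiotic stress and abscisic acid list had 9 of 17 in replicate 1 (52.9%) and 2 in replicate 2 and in both (11.8%). Of 9 senescence genes, 5 were in the replicate 1 list (55.6%), 3 in the replicate 2 list (33.3%) and 2, WRKY53 and WRKY54, in both (22.2%). None of the 7 development genes and none of the 4 phosphate genes among the members had a replicate 1 summit, against 28.7% of all genes. In replicate 2, 1 of each had one, WRKY10 (14.3%) and WRKY6 (25%), against 13.7%. Both lists of genes are short, and the window matters. Beyond it, replicate 1 summits lay 1007 bp outside the phosphate gene WRKY6 and 1682 bp outside the development gene WRKY13. The development list names 8 genes; the eighth, WRKY44, has the symbol TTG2 in the gene table and so is no member, and it had a summit in both lists. WRKY23, which acts in auxin transport, WRKY12 and WRKY13 of stem development, and WRKY71, a promoter of shoot branching, had no summit in either list. A gene can be on several lists, and 22 members were on none. Of these 22, 7 were in the replicate 1 list (against 28.7% of all genes) and 4 in the replicate 2 list (against 13.7%). The same 4, WRKY43, WRKY47, WRKY49 and WRKY74, were in both (against 11.7%), as many as among the 26 defence genes. The high defence share was a value of replicate 1, the library with more peaks, and whether the lists differ from other genes or from each other was not tested.

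**Figure D5:**
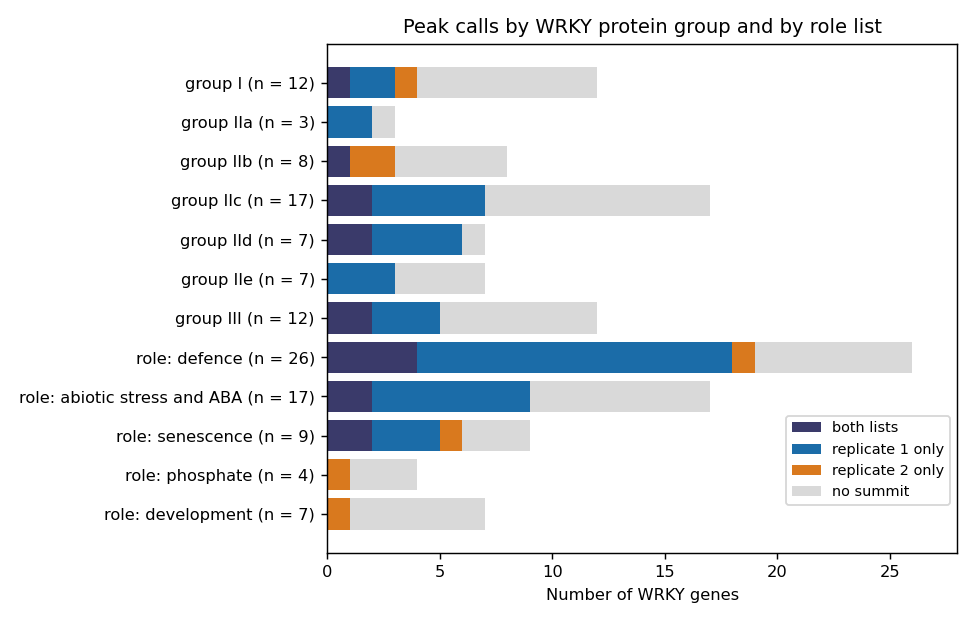
Number of WRKY genes (x axis) in each protein group and role list with a summit in both lists, in replicate 1 only, in replicate 2 only or in neither. In the defence list, 18 of 26 genes have a replicate 1 summit and 4 a summit in both lists, while no development or phosphate gene among the members has a replicate 1 summit; the development gene TTG2 (WRKY44), no member by symbol and not plotted, has a summit in both lists.

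Genes that work with WRKY proteins in immunity were bound about as often as genes at large. Of 27 such genes, 9 were in the replicate 1 list (33.3%, against 28.7% of all genes), 4 in the replicate 2 list (14.8%, against 13.7%) and 3 in both (11.1%, against 11.7%). MPK3, a MAP kinase whose cascade phosphorylates WRKY33, had folds of 2.78 in replicate 1 and 2.92 in replicate 2. PAD4, a lipase-like regulator of salicylic acid signalling, had 5.32 and 2.81, and PBS3, an enzyme of salicylic acid synthesis, 3.58 and 2.69. The salicylic acid receptors NPR3 (3.46) and NPR4 (2.97), the factor TGA3 (2.65), the kinase MKK5 (2.59) and SIB2 (2.21) and JAV1 (1.75), partners of WRKY proteins with a VQ motif, had a replicate 1 summit only. The camalexin gene CYP71A13 had a replicate 2 summit only (2.28). A summit in neither list was the case for 17 of the 27. These included PAD3, the flagellin receptor gene FLS2, its early response gene FRK1, the salicylic acid synthesis gene ICS1 and PR1. The others were MPK4, MPK6, MKK4 and MEKK1 of the MAP kinase list, MKS1 and SIB1 of the VQ list, and EDS5, EDS1, NPR1, TGA2, TGA5 and TGA6.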

How the data were processed

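Each ChIP library had 1 narrowPeak list. Per the submitters' processing notes, the tools were bcl2fastq, Bowtie 0.12.9 and MACS2 and the build TAIR10; which control and threshold MACS2 used, and its version, is not given in the sources used here. Numbering of peaks starts anew in each list, so peaks were called per replicate. The authors' fold column is a linear ratio of ChIP to control at the summit, with 1 added to each as MACS2 does. Of the −log10 p and −log10 q values deposited beside it, −log10 q began at 1.33 and 1.30 in the lists of replicates 1 and 2. The deposited score is 10 times −log10 q cut to a whole number, in 100% of peaks, and was not used further.

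Genes came from the NCBI RefSeq table of TAIR10.1, used as if its positions on chromosomes 1 to 5 were those of TAIR10, and no coordinate from it is printed. Summits were assigned with Python 3.11.15, numpy 2.4.6, pandas 2.3.3 and scipy 1.17.1, and the assignment was tested on planted peaks. The lists hold no read totals. Summit pileups were solved from MACS2's formulas for fold and p. They were whole multiples (within 0.02 of a read) of 0.72 in replicate 1 and 0.821 in replicate 2, in 100% of peaks; 84.4% and 90.3% of peaks had more than 1 solution, and the one nearest a whole multiple was taken.

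There was 1 ChIP group, so no comparison between groups and no test was run, and each member share is set beside that of all genes. Members, groups, roles and partner lists were chosen with earlier results of these data known. Named are all members with a summit; those in both lists, and the 5 highest in 1 list only, are given in full, and those near the 1000 bp limit. Alternatives were other flanks, any base of a peak in place of its summit, stricter peaks, lists of equal length, other overlaps and each list alone. Also 5 genes with WRKY only as a synonym were added, chosen after seeing the data. Sequences were not analysed here.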

Additional observations from a re-analysis of the deposited data

How the results depend on the processing

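The number of WRKY genes bound depended on the window and the peak threshold, as it did for all genes. The counts of 28, 11 and 8 in the replicate 1 list, the replicate 2 list and both are followed here through the alternatives, each with the shares of members and, after them, of all genes. With summits inside the span only they became 12, 3 and 3 (17.9%, 4.48% and 4.48%, against 7.5%, 2.8% and 2.12%), and with flanks of 250 bp 17, 4 and 3 (25.4%, 5.97% and 4.48%, against 17.0%, 6.54% and 5.36%). Among peaks with −log10 q of 10 or more they were 7, 2 and 1 (10.4%, 2.99% and 1.49%, against 10.4%, 2.39% and 1.86%), and with the top 1000 peaks of each list 2, 2 and 0 (2.99%, 2.99% and 0%, against 3.12%, 2.96% and 0.998%). With −log10 q of 5 or more, the replicate 1 count was 22 (32.8%, against 21.5%). The replicate 2 count was then 7 (10.4%, against 8.49%) and that in both lists 5 (7.46%, against 7.10%). With lists cut to equal length, replicate 1 held 14 members (20.9%, against 14.9% of all genes) and both lists 5 (7.46%, against 8.40%). Requiring an overlap of at least 50% of each peak left 5 (7.46%, against 9.52%), without WRKY7, WRKY47 and WRKY54. Without replicate 1 or without replicate 2, the count of 8 became 11 (16.4%, against 13.7%) or 28 (41.8%, against 28.7%). Of all 37 values, 19 stayed within 1.5 times the main count, or within 1 SD of the median lower fold. Among them were flanks of 500 bp, with 23, 11 and 7 members (34.3%, 16.4% and 10.4%, against 22.2%, 9.74% and 8.05%). Flanks of 2000 bp, also among them, gave 36, 13 and 12 (53.7%, 19.4% and 17.9%, against 37.3%, 19.1% and 16.7%). Counting any base of a peak within 1000 bp, likewise among them, gave 30, 12 and 11 (44.8%, 17.9% and 16.4%, against 30.6%, 14.7% and 12.7%). That setting added WRKY6, WRKY22 and WRKY61 to the members in both lists. With the 5 synonym genes, 9 of 72 were in both lists, the added one being TTG2 (WRKY44), a regulator of leaf hair development. No paired analysis was possible because the series has 1 ChIP group. The summits of member peaks rested on 52 to 165 reads in replicate 1 and 48 to 80 in replicate 2; how depth bears on the calls was not tested.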
